A study of Caenorhabditis elegans with 6 samples.

Results

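Messenger RNA of whole Caenorhabditis elegans first-stage larvae was compared between 2 strains that carry an integrated reporter array, as 1 group of 4 libraries, and the wild-type strain N2 with 2 libraries. Genes were chosen where all 4 array libraries lay above, or all 4 below, both N2 libraries in CPM, counts scaled by the library total. Of 20190 genes in the count table, 4110 met this rule, and 3672 of the 15024 genes that passed the expression filter met it, 2137 of them higher and 1535 lower in the array strains. HW3826 carries maIs105, labelled col-19::gfp, the promoter of a cuticle collagen gene driving green fluorescent protein (GFP). The growth text names the strain with maIs105 VT1367, and the design text joins the names as VT1367 (HW3826). GR1395, spelled GR1935 in the growth text, carries mgIs49, which combines the mlt-10 promoter driving GFP with a PEST degradation tag and ttx-3::gfp. N2 carries no array. All 3 groups were synchronised by starvation in M9 buffer and then developed for 4 hours at 25 °C. Each array is represented by 1 strain, so effects of an array and of anything else that sets its strain apart from N2 cannot be told apart. The labels do not state that the libraries of a strain came from separate cultures, so p-values speak of the spread between libraries alone, and that spread may be technical.

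Arrays of this kind hold many copies of the injected DNA in tandem, and integrated ones are inherited like any other piece of a chromosome. In C. elegans such repetitive DNA is known as a target of small RNA and chromatin silencing, and many copies of a promoter also offer many binding sites for the factors that act on it. The series title names myrf-1, which encodes a membrane-bound transcription factor needed for larval development and for the rewiring of larval motor neurons. A comparison of both arrays with N2 asks what strains with different arrays have in common.

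Library totals were 53362541 and 47736810 counts in HW3826, 54957641 and 47259839 in GR1395, and 42593688 and 45867714 in N2. A floor of 3 counts then stood at 0.0546 to 0.0704 CPM, and such limits cover counting error only. Strain identity was the main difference between the array libraries: the first principal component, with 51.4% of the variance, set GR1395 apart from the other libraries, and the next, with 21.6%, ran from HW3826 to N2 with GR1395 between them. N2 replicate 2 also carried a trend with gene length, with a median log2 level of -0.163 relative to the mean of all libraries in the class of longest genes and 0.125 in the class of shortest genes. In the other 5 libraries the same medians lay between -0.0187 and 0.0629 for the longest genes and between -0.078 and 0.0249 for the shortest. Replicate 2 of both array strains had a smaller trend in the opposite direction. It ran from -0.0587 in the shortest to 0.0603 in the longest class in HW3826, and from -0.078 to 0.0629 in GR1395. Values with this trend removed from every library are therefore given beside the gene groups below.

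Both array strains held far less transcript of srw-85 and haf-6 than N2, and differed from it by smaller amounts in 5 more genes. With the array strains as 1 group, so that the difference between them counts as spread, 7 of the 15024 genes passed the edgeR quasi-likelihood test at a Benjamini-Hochberg adjusted p of 0.05, which is 0.0466% of the genes tested. The split was 1 higher (0.00666%) and 6 lower (0.0399%), and 2032 genes had an unadjusted p under 0.05. All 7 met the no-overlap rule. DESeq2 called 401 genes, and limma-voom called 7. This fit is called the 2-group fit below.

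srw-85, a predicted chemoreceptor of the srw class on chromosome V (19429387 to 19431136, WBcel235), had 1.33 and 1.76 CPM in HW3826 and 2.66 and 1.97 CPM in GR1395, against 75.4 and 69.9 CPM in N2. The array and N2 libraries were far apart, and the nearest ones differed 22.3-fold after 0.5 CPM was added to every value, as for every such gap given here. The array mean was 1.93 ± 0.553 CPM (SD, n = 4), against 72.6 ± 3.91 CPM in N2 (SD, n = 2). srw-85 fell by 5.26 on the log2 scale (SE 0.19, edgeR adjusted p = 3.14e-05). A difference between the array strains was also called, with log2 fold changes against N2 of -5.56 in HW3826 and -5.01 in GR1395 and an edgeR adjusted p of 0.0461 for the difference between them, which did not pass when replicate 1 of either array strain was left out (up to 0.409). The tested genes on both sides of srw-85 did not share its fall: C25F9.2 had a log2 fold change of 1.60 (edgeR adjusted p = 0.275) and C25F9.11 one of -0.20 (0.795), and srw-86, a relative some distance away, had -0.31 (0.414).

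haf-6 encodes a half-molecule ABC transporter that C. elegans needs for efficient RNA interference (chromosome I, 1162880 to 1175809, minus strand). Its level was 5.77 and 6.39 CPM in HW3826 and 5.59 and 5.48 CPM in GR1395, against 32.7 and 32.7 CPM in N2. The array libraries lay within 1 CPM of each other and the nearest array and N2 libraries differed 4.82-fold. haf-6 fell by 2.52 (SE 0.10, edgeR adjusted p = 2.16e-05), by 2.43 in HW3826 and by 2.61 in GR1395, a difference between strains that did not pass (edgeR adjusted p = 0.295). Next to haf-6, on the opposite strand, lies smg-2, the RNA helicase at the centre of nonsense-mediated decay (I, 1176473 to 1190829). smg-2 had 96.8, 93.1, 103 and 106 CPM in the array libraries, against 77 and 62.6 CPM in N2, with no overlap, a log2 fold change of 0.49 and an edgeR adjusted p of 0.103 in the 2-group fit. Y48G8AL.7, which overlaps the other end of haf-6 on the opposite strand, had a log2 fold change of 0.24 (edgeR adjusted p = 0.505). The use of strand in counting is not given in the sources used here, so reads from the shared stretch could have gone to either gene.

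Another 4 genes fell by smaller amounts. clec-86 encodes a protein with a C-type lectin domain (X, 7139875 to 7140566, overlapping alh-10 on the opposite strand) and had 3.49, 3.39, 2.44 and 2.9 CPM in the array libraries, against 8.36 and 10.2 CPM in N2. It fell by 1.62 (SE 0.18, edgeR adjusted p = 0.0239). dhs-21, the dicarbonyl and L-xylulose reductase of C. elegans (V, 12731767 to 12733645, overlapping R11D1.10 on the opposite strand), had 21.5, 23.1, 25.8 and 26.2 CPM, against 41.3 and 42 CPM in N2, and fell by 0.81 (SE 0.09, edgeR adjusted p = 0.0239). The array libraries of both genes lay well below N2, those of HW3826 lower for dhs-21 and those of GR1395 lower for clec-86.

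gakh-1, the homolog of cyclin G-associated kinase (X, 5782499 to 5786455), had 21.2, 23.4, 23.7 and 22.9 CPM in the array libraries, against 37.5 and 34.6 CPM in N2, and fell by 0.68 (SE 0.07, edgeR adjusted p = 0.0239). plst-1, which encodes the actin-bundling protein plastin (IV, 1289627 to 1296897), had 85.4, 88.8, 98.7 and 98.4 CPM, against 149 and 143 CPM in N2, and fell by 0.67 (SE 0.07, edgeR adjusted p = 0.0239). Both strains had nearly the same log2 fold change for gakh-1, -0.69 in HW3826 and -0.68 in GR1395, and the corresponding values for plst-1 were -0.74 and -0.61. tag-293 was the 1 gene that rose (V, 7354435 to 7355564). Its levels were 15.4, 15.4, 17.6 and 16 CPM, against 8.48 and 8.7 CPM in N2, a rise of 0.88 (SE 0.10, edgeR adjusted p = 0.0239) that came to 0.84 in HW3826 and 0.92 in GR1395. For none of these 5 genes did the difference between the array strains pass, with edgeR adjusted p from 0.131 to 0.906.

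Only srw-85 and haf-6 kept their call without each library in turn (edgeR adjusted p of at most 0.00247). The count of called genes was 2 without HW3826 replicate 2, without N2 replicate 1 or without N2 replicate 2, and 16 without GR1395 replicate 2. Calls for gakh-1 and tag-293 were lost without GR1395 replicate 1 as well. clec-86 also missed the threshold with the length trend removed, with a log2 fold change of -1.56.

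**Figure D1:**
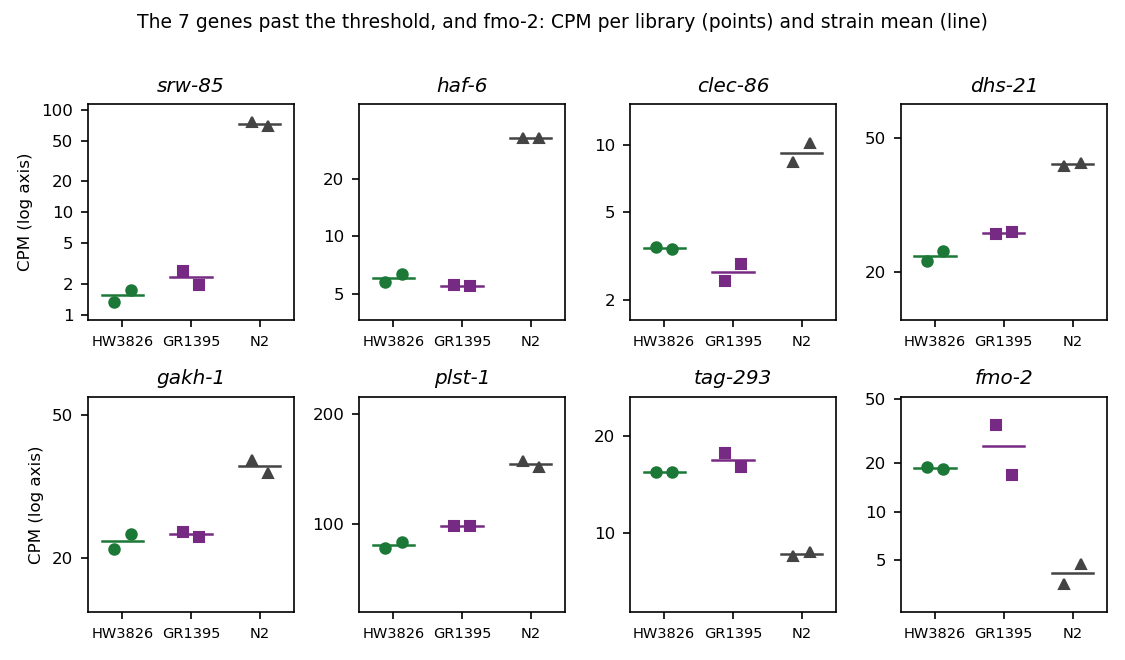
CPM on a log axis of the 7 genes that passed the 2-group fit, and of fmo-2, in HW3826, GR1395 and N2, with 1 point per library and a line at each strain mean. Array and N2 libraries do not overlap in any panel, from the 22.3-fold gap of srw-85 to the 1.44-fold gap of plst-1, and GR1395 replicate 1 stands above the other array libraries for fmo-2.

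The other test gave each strain its own level and set the mean of HW3826 and GR1395 against N2, so that spread was measured within strains. In this strain-mean contrast 1383 genes passed (9.21% of those tested), 719 higher (4.79%) and 664 lower (4.42%). Of the 1383 calls, 80.2% met the no-overlap rule and 274 did not, and for 521 of them HW3826 and GR1395 differed from each other, so a call in this contrast can rest mainly on 1 strain. Leaving out 1 library changed the count to 767 for HW3826 replicate 2, 784 for GR1395 replicate 1, 2287 for N2 replicate 1 and 472 for N2 replicate 2. All 7 genes of the 2-group fit passed it, also without each library in turn. A gene described below as past the threshold in the strain-mean contrast has its edgeR adjusted p from there, and holds without each library in turn unless said otherwise. Of the gene lists below, the 2-group fit called srw-85, haf-6 and clec-86 and no other member. Counts of list members called in the strain-mean contrast are to be read beside the 4.79% higher and 4.42% lower of all genes tested.

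Most genes without overlap differed by little. By the rule alone 14.2% of the tested genes were higher and 10.2% lower, 24.4% together, and the median log2 fold change was 0.283 among the higher genes and -0.273 among the lower ones, against 0.0028 over all genes tested. With 0.5 CPM added, the nearest array and N2 libraries differed by a median of 1.059-fold for the higher and 1.043-fold for the lower genes. Among the 1750 higher and 1288 lower genes with a mean of at least 2 CPM, the gap between nearest libraries reached 1.5-fold in 20 higher and 9 lower genes and 2-fold in 2 higher and 3 lower genes. At the edge of the rule, mpk-1 was just inside, with 99.4, 100, 119 and 116 CPM in the array libraries, against 99.4 and 82.1 CPM in N2, and lin-18 was just outside, with 27.1, 28.6, 27.2 and 29.1 CPM, against 27.1 and 24.9 CPM in N2. HW3826 and GR1395 differed from each other in 7.86% of the higher and 10.3% of the lower genes, beside 14.5% of all genes tested. The rule leaves out genes whose array strains lie on opposite sides of N2. These shares therefore depend on how the genes were chosen and do not measure agreement between the strains.

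Among genes with a mean of at least 2 CPM, the widest gap in the higher direction was that of fmo-2, a flavin-containing monooxygenase (IV, 10682524 to 10684367). These genes were ranked by the gap after their values were seen, since tag-293 alone met both conditions. fmo-2 had 19 and 18.3 CPM in HW3826 and 34.4 and 17 CPM in GR1395, against 3.57 and 4.75 CPM in N2, a gap of 3.33-fold between nearest libraries. Its log2 fold change was 2.38 (SE 0.35), with an edgeR adjusted p of 0.0986 in the 2-group fit and 0.0291 in the strain-mean contrast. The last call did not hold when any HW3826 or N2 library was left out (edgeR adjusted p of 0.291 at most) or with the length trend removed (0.0623). The neighbours K08C7.4 and K08C7.6 had log2 fold changes of 0.03 and 0.20 (edgeR adjusted p of 0.941 and 0.626).

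Other genes of this ranking passed the strain-mean contrast, also without each library in turn, and not the 2-group fit. R07B1.8 had 11.4, 8.99, 10.2 and 6.54 CPM in the array libraries, against 2.82 and 2.49 CPM in N2 (log2 fold change 1.79, edgeR adjusted p of 0.0799 in the 2-group fit and 0.00059 in the strain-mean contrast). F44A2.3 had 7.44, 9.8, 8.93 and 7.58 CPM, against 3.69 and 2.11 CPM in N2 (log2 fold change 1.52, edgeR adjusted p of 0.0852 and 0.002). All array libraries stood above N2 by at least 1.9-fold for both genes. The chondroitin proteoglycan genes cpg-7 and cpg-18 had log2 fold changes of 1.14 and 1.61, and the lectin gene clec-139 one of 1.37. The potassium channel gene twk-34 had 6, 6.33, 6.93 and 4.82 CPM, against 2.72 and 2.79 CPM in N2. For these 4 genes the edgeR adjusted p-values were 0.0873 to 0.116 in the 2-group fit and 0.00139 to 0.00446 in the strain-mean contrast.

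Some of the widest gaps went with very unequal array libraries. C18D11.6 had 3.95, 3.39, 11.8 and 2.84 CPM, against 1.1 and 1.5 CPM in N2, with GR1395 replicate 1 far above the rest, and passed neither fit (edgeR adjusted p of 0.318 and 0.237). Y40B10B.1 and T21C9.9 were also highest in GR1395 replicate 1, at 8.35 and 6.15 CPM. F18E3.12 differed between the strains instead, with 4.22 and 4.17 CPM in HW3826 and 1.56 and 1.82 CPM in GR1395, against 0.704 and 0.763 CPM in N2, and its HW3826 minus GR1395 difference of 1.35 passed (edgeR adjusted p = 0.000692).

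**Figure D2:**
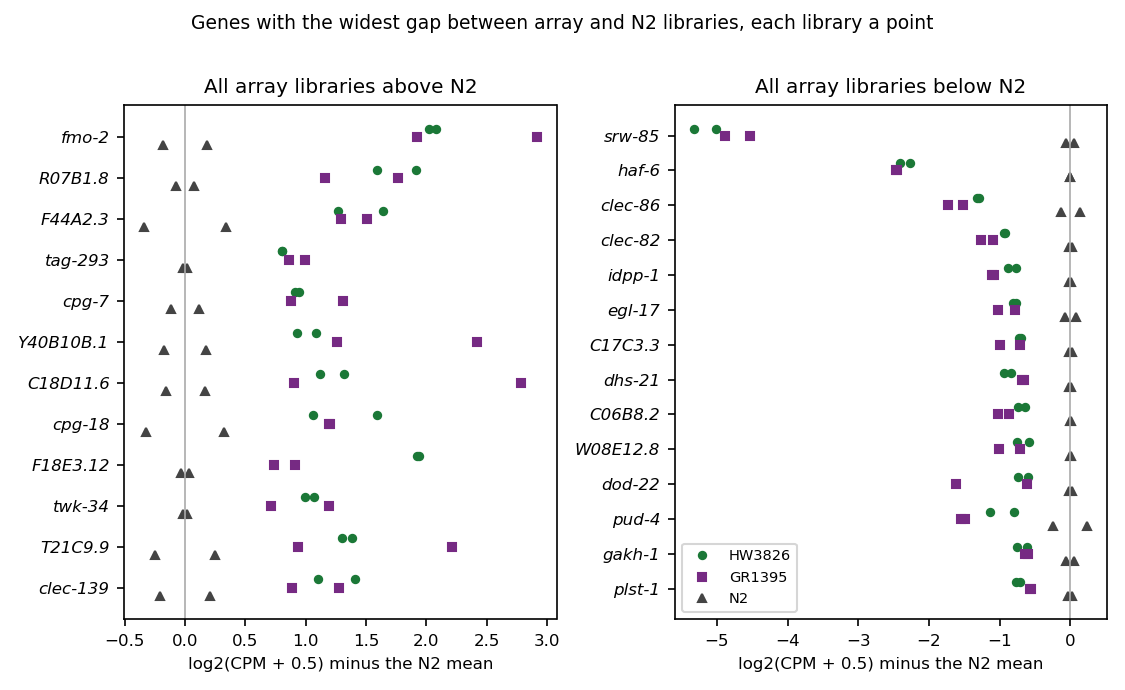
Genes with the widest gap between array and N2 libraries, higher on the left and lower on the right, together with gakh-1 and plst-1, which passed the 2-group fit. Points are libraries, placed by log2(CPM + 0.5) minus the N2 mean, and srw-85 and haf-6 lie farther from N2 than any other lower gene shown.

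Among lower genes with a mean of at least 2 CPM, the widest gaps after srw-85, haf-6 and clec-86 were those of clec-82, idpp-1, egl-17, C17C3.3, dhs-21 and C06B8.2. egl-17, the fibroblast growth factor-like ligand that guides migrating sex myoblasts, had 3.19, 3.29, 2.67 and 3.24 CPM in the array libraries, against 6.32 and 5.62 CPM in N2 (log2 fold change -0.97). Its edgeR adjusted p was 0.0873 in the 2-group fit and 0.00123 in the strain-mean contrast. clec-82, a lectin gene on IV (2835664 to 2838723), had 1.67, 1.7, 1.24 and 1.46 CPM, against 3.62 and 3.73 CPM in N2 (log2 fold change -1.30, edgeR adjusted p of 0.0852 and 0.000638). Of its tested neighbours, clec-80 and Y54G2A.7 were also without overlap, at -0.76 and -0.56 (edgeR adjusted p of 0.0873 and 0.205 in the 2-group fit). Y54G2A.7 shares a stretch with clec-82 on the same strand, so reads from there could have gone to either gene. The lectin gene clec-83 and pudl-1, on either side of clec-82, overlapped N2, with log2 fold changes of -0.12 and 0.23 (edgeR adjusted p of 0.688 and 0.865).

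A run of pud genes was lower in every array library. These genes are named for proteins that become more abundant in mutants of daf-2, the insulin receptor gene of C. elegans, and 6 of them sit together on V between 2322038 and 2330930. pud-3 had 37.9 and 48.8 CPM in HW3826 and 32.4 and 32.3 CPM in GR1395, against 69.4 and 109 CPM in N2. pud-4 had 28.3, 35.8, 21.1 and 22.1 CPM, against 53.1 and 74.4 CPM in N2. Neither gene had overlapping groups, and their log2 fold changes were -1.26 and -1.27 (edgeR adjusted p of 0.134 and 0.151 in the 2-group fit, 0.0316 and 0.00446 in the strain-mean contrast). The pud-3 call was lost without either HW3826 library and with the length trend removed (edgeR adjusted p = 0.0524). The other 4 were pud-1.1 at -0.91, pud-1.2 at -0.75 and the pair of pud-2 genes at -0.60 and -0.69, with edgeR adjusted p-values of 0.00174 to 0.00833 in the strain-mean contrast, and the call for 1 pud-2 gene was lost without N2 replicate 2. Copies within this cluster are near-identical, so how their reads were split is uncertain, and they were chosen after their values were seen.

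**Figure D3:**
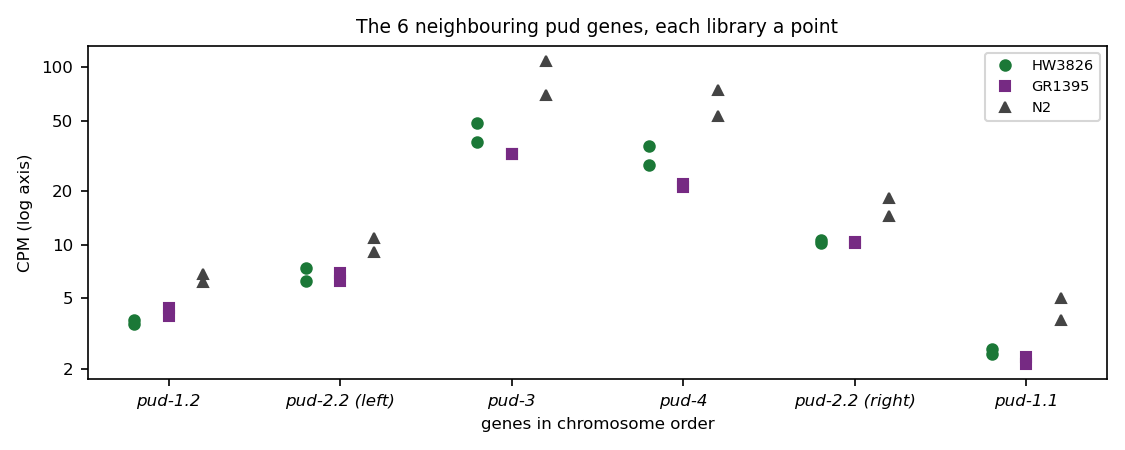
CPM on a log axis of the 6 tested pud genes in chromosome order, with HW3826, GR1395 and N2 from left to right within each gene and 1 point per library. Every array library lies below both N2 libraries for all 6 genes, and the groups are farthest apart for pud-3 and pud-4.

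Genes of the insulin receptor pathway and its FOXO factor DAF-16 gave members on both sides. Of 23 tested, 4 were higher and 8 lower without overlap (17.4% and 34.8%, beside 14.2% and 10.2% of all genes tested). Their median log2 fold change was -0.09, and with the length trend removed the counts were 3 and 9 (median -0.20). In the strain-mean contrast 2 were called higher and 6 lower, with the lower count at 2 without N2 replicate 2 and 3 without HW3826 replicate 2. The lower ones included some dod genes, named as targets downstream of DAF-16. dod-24 (IV, 12940106 to 12941354) had 39.1, 42.6, 43.6 and 33.1 CPM in the array libraries, against 64.1 and 67 CPM in N2 (log2 fold change -0.75, edgeR adjusted p of 0.0852 in the 2-group fit and 0.000579 in the strain-mean contrast). Nearby dod-21 had 0.281, 0.607, 0.4 and 0.148 CPM, against 2.61 and 2.16 CPM in N2, and its log2 fold change of -2.74 had edgeR adjusted p-values of 0.0852 and 0.000382. dod-22 lay within the same region and had 6.41, 7.12, 6.99 and 3.24 CPM, against 11.2 and 10.8 CPM in N2, and passed neither fit. In the strain-mean contrast dod-19 and dod-20 did not pass, with log2 fold changes of -0.16 and 0.06 (edgeR adjusted p of 0.128 and 0.951). nnt-1, the mitochondrial transhydrogenase, was lower in HW3826 (log2 fold change -0.96) than in GR1395 (-0.42), a difference that passed (edgeR adjusted p = 0.00222).

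2 regulators of the pathway itself lay above N2. daf-16 had 148, 166, 200 and 172 CPM in the array libraries, against 124 and 101 CPM in N2, with a log2 fold change of 0.58 that was 0.42 with the length trend removed. It passed the strain-mean contrast with and without that trend (edgeR adjusted p of 0.00226 and 0.0019) and not the 2-group fit (0.116). age-1, which encodes the catalytic subunit of phosphatidylinositol 3-kinase, had a log2 fold change of 0.31, which was 0.16 and short of the threshold with the trend removed (edgeR adjusted p = 0.192).

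Genes of small RNA silencing, the pathway known to act on repetitive transgenes, were higher by the rule more often than lower. Of 42 tested, 15 were higher and 2 lower without overlap (35.7% and 4.76%), and the median log2 fold change was 0.09. With the length trend removed the counts were 8 and 8, and the median was -0.01. sago-1, a secondary Argonaute, had 24, 23, 23.7 and 23.5 CPM, against 19.6 and 16.2 CPM in N2 (log2 fold change 0.37), and hrde-1, the nuclear Argonaute of inherited silencing, had 31.2, 28.6, 28.9 and 31.1 CPM, against 25.3 and 23.4 CPM in N2 (0.28). Their edgeR adjusted p-values of 0.0172 and 0.0469 in the strain-mean contrast were 0.0537 and 0.306 with the trend removed, and 0.19 and at most 0.254 without N2 replicate 2 or, for hrde-1, without 1 of 4 other libraries. mut-2, the nucleotidyltransferase that adds tails to target RNAs, was lower, with a log2 fold change of -0.37 (edgeR adjusted p = 0.276 in the 2-group fit). Called higher in the strain-mean contrast were 7 members, 13 without N2 replicate 1, none without N2 replicate 2 and none with the trend removed. Among heterochromatin and synMuv repressors, which package silent chromatin, 7 of 32 were higher and 4 lower (21.9% and 12.5%, beside 14.2% and 10.2% of all genes tested). With the trend removed the counts were 1 and 9. The strain-mean contrast called 0 higher and 1 lower, and 0 and 3 with the trend removed. In the nonsense-mediated decay list of 9, smg-2 was called in the strain-mean contrast with the trend removed as well (log2 fold change 0.32, edgeR adjusted p = 0.00691).

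Gene length moved with the direction of the no-overlap genes across the whole table. In the class of longest genes, with a median of 3909 bases, 38% were higher and 2.79% lower, and in the class of shortest genes, with a median of 441 bases, 6.32% were higher and 17.4% lower. After removal of each library's length trend the longest class held 16.2% higher and 17.2% lower and the shortest 7.72% and 14.5%. Over all tested genes the no-overlap split was then 1656 higher and 1893 lower (46.7% higher), against 2137 and 1535 (58.2% higher) without it. Scaling by trimmed mean of M values gave 1935 higher and 1825 lower. With 1 N2 library left out, where non-overlap is easier to meet, the longest class had 39.7% higher and 11.2% lower without N2 replicate 2, and 73.2% higher and 4.13% lower without N2 replicate 1. The part of N2 replicate 2 in single members was not tested beyond these values.

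**Figure D4:**
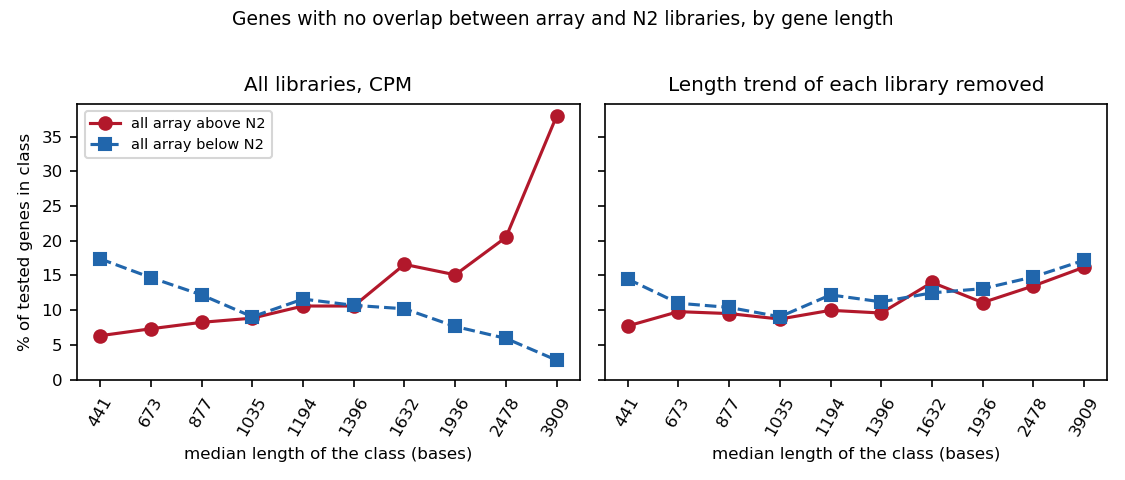
Share of tested genes in 10 classes of gene length that were higher (circles) or lower (squares) in all 4 array libraries than in both N2 libraries, before and after the length trend of each library was removed. Before removal the higher share climbs to 38% in the longest class, and after removal it is 16.2%.

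Ribosomal protein genes, short and abundant parts of the translation machinery, lay mostly below N2. Of 81 tested, 43 were lower and 0 higher without overlap (53.1% and 0%, beside 10.2% and 14.2% of all genes tested). Their median log2 fold change was -0.17, and with the length trend removed the counts were 33 and 0 (median -0.12). Without N2 replicate 2 the counts were 44 lower and 4 higher, and without N2 replicate 1 they were 79 and 0. No ribosomal gene passed the 2-group fit in edgeR, where 29 of them were lower before adjustment (p under 0.05). DESeq2 called 4 and limma-voom 0. In the strain-mean contrast 5 passed, a count that was 62 without N2 replicate 1 and 1 without HW3826 replicate 2. Over all genes tested that contrast called 4.42% lower, so 5 of 81 is near the general share. rpl-37 had 141, 126, 122 and 129 CPM, against 168 and 191 CPM in N2, with a log2 fold change of -0.49 (edgeR adjusted p of 0.114 in the 2-group fit and 0.00226 in the strain-mean contrast). Its array libraries all lay below N2, and pitp-1 overlaps it on the opposite strand.

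Neuropeptide and insulin-like genes, which encode short secreted signals, had more lower than higher members, though most overlapped N2. Of 121 tested, 33 were lower and 5 higher (27.3% and 4.13%, beside 10.2% and 14.2% of all genes tested). Their median was -0.15, and with the length trend removed the counts were 29 and 5. nlp-7 had 20.8, 19.1, 21 and 19.9 CPM, against 28.8 and 30.3 CPM in N2, and its log2 fold change was -0.57 (edgeR adjusted p of 0.0852 in the 2-group fit and 0.000831 in the strain-mean contrast). The groups were well apart and both strains had nearly the same value, -0.57 in HW3826 and -0.58 in GR1395. nlp-79 and nlp-41 had log2 fold changes of -0.69 and -0.47 and passed the strain-mean contrast, not without N2 replicate 2. In the 2-group fit 31 members were lower before adjustment, and DESeq2 called 5. The strain-mean contrast called 19 members lower and 2 higher, and 12 and 2 with the trend removed. The lower count was 24 without N2 replicate 1 and 8 without N2 replicate 2.

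Genes of the cell cycle and DNA replication were lower in 13 of 30 cases and higher in 1 (43.3% and 3.33%). Over all genes tested 10.2% were lower and 14.2% higher, and the median of this list was -0.18. With the length trend removed 14 were lower and 0 higher, with a median of -0.23. mcm-2 and mcm-5, subunits of the replicative helicase, had log2 fold changes of -0.27 and -0.24, and knl-1, a kinetochore protein, had -0.24. Before adjustment 6 were lower in the 2-group fit, and DESeq2 called 0. The strain-mean contrast called 4 members lower, 9 with the trend removed, 9 without GR1395 replicate 2 and 0 without N2 replicate 2, where mcm-2 reached an edgeR adjusted p of at most 0.135. Medians differed by strain, at -0.10 in HW3826 and -0.27 in GR1395. Germ cell and P granule genes, 31 tested, had 1 higher and 0 lower without overlap (3.23% and 0%, below the shares of all genes). The strain-mean contrast called 0 of them higher and 3 lower, fewer without N2 replicate 2 and 4 with the trend removed. They summed to 833 and 838 CPM in HW3826 and 810 and 828 CPM in GR1395, against 819 and 778 CPM in N2.

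C-type lectin genes, many of them expressed in the intestine, had 15 higher and 28 lower of 125 tested (12% and 22.4%). The counts were 13 and 27 with the length trend removed. clec-86 was the 1 member past the 2-group fit, and the strain-mean contrast called 7 higher and 20 lower, of which the lower count was 10 without N2 replicate 2. spp-2, a saposin-like gene, had 75.9, 66.6, 68.7 and 69.2 CPM, against 98.5 and 110 CPM in N2 (log2 fold change -0.60, edgeR adjusted p of 0.0852 in the 2-group fit and 0.00059 in the strain-mean contrast). Other lysozyme and saposin-like genes were mixed, 3 higher and 4 lower of 33 in all (9.09% and 12.1%, beside 14.2% and 10.2% of all genes tested). The strain-mean contrast called 0 higher and 4 lower, and fewer lower without N2 replicate 2 or without HW3826 replicate 2.

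Heterochronic genes, which time larval cell fates, were on the higher side: 8 of 22 higher and 0 lower without overlap, with a median of 0.17. These were 36.4% and 0%, beside 14.2% and 10.2% of all genes tested. With the length trend removed 5 were higher and the median was 0.06. The strain-mean contrast called 6 higher and 0 lower, and 4 and 0 with the trend removed. The higher count was 10 without N2 replicate 1 and 2 without N2 replicate 2. nhr-85, a nuclear receptor of the molting clock, had 18.6, 18.1, 17.7 and 17.2 CPM, against 12 and 13.9 CPM in N2 (log2 fold change 0.44). puf-9, a Pumilio-family RNA-binding protein, had 116, 126, 131 and 126 CPM, against 101 and 87.3 CPM in N2 (0.38). Both passed the strain-mean contrast without each library in turn and with the trend removed (edgeR adjusted p of 0.0248 for nhr-85 and 0.0171 for puf-9 in the last). lin-14, the regulator of first-stage fates, and daf-12, a steroid receptor, had log2 fold changes of 0.34 and 0.39 in the 2-group fit and lost their strain-mean calls without N2 replicate 2, without HW3826 replicate 2, without GR1395 replicate 1 or, for daf-12, without GR1395 replicate 2 or with the trend removed (edgeR adjusted p = 0.051). Nuclear hormone receptors as a family had 45 higher and 8 lower of 227 (19.8% and 3.52%), and 45 and 11 with the trend removed. The strain-mean contrast called 17 of them higher and 3 lower, 29 higher without N2 replicate 1 and 5 without N2 replicate 2.

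Fat metabolism genes had members on both sides, 13 higher and 6 lower of 40 tested (32.5% and 15%). Over all genes tested the shares were 14.2% and 10.2%, and with the length trend removed the list had 13 and 7. Called in the strain-mean contrast were 14 higher and 6 lower, and 10 and 7 with the trend removed. Without 1 library the higher count was 8 to 14 and the lower count 2 to 7. pod-2, the acetyl-CoA carboxylase that starts fatty acid synthesis, had 1072 and 1116 CPM in HW3826 and 990 and 1007 CPM in GR1395, against 716 and 626 CPM in N2. Its log2 fold change was 0.62 (edgeR adjusted p of 0.0852 in the 2-group fit and 0.000371 in the strain-mean contrast), and 0.38 with the trend removed (0.00386 in the strain-mean contrast). plin-1, the lipid droplet protein perilipin, had 139, 145, 143 and 147 CPM, against 117 and 111 CPM in N2, a log2 fold change of 0.31 (edgeR adjusted p of 0.0109 in the strain-mean contrast, 0.0548 without HW3826 replicate 2). fat-5, a fatty acid desaturase, met the rule through unequal strains, with log2 fold changes of 1.79 in HW3826 and 0.37 in GR1395. The half-molecule transporter haf-3 did likewise, at 204 and 209 CPM in HW3826 and 75.5 and 73.7 CPM in GR1395, against 59 and 56.1 CPM in N2. HW3826 minus GR1395 was 1.51 for haf-3 (edgeR adjusted p = 4.35e-08).

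Enzymes of detoxification are given by family, beside 14.2% higher and 10.2% lower over all genes tested. Glutathione transferases had 8 higher and 3 lower of 49 (16.3% and 6.12%), the higher share close to that of all genes. UDP-glucuronosyltransferases had 13 higher and 4 lower of 65 (20% and 6.15%). Cytochrome P450 genes had 11 higher and 8 lower of 71 (15.5% and 11.3%), both close to the shares of all genes. With the length trend removed the counts were 10 and 2, 8 and 6, and 10 and 8. The strain-mean contrast called 8 glutathione transferases higher and 0 lower, 9 UDP-glucuronosyltransferases higher and 7 lower, and 2 cytochrome P450 genes higher and 8 lower. Glutathione transferases called higher numbered 3 without GR1395 replicate 1, 4 without HW3826 replicate 2 and 5 without N2 replicate 1, and cytochrome P450 genes called lower numbered 3 without N2 replicate 2. cyp-36A1, 1 of the 2 cytochrome P450 genes called higher, had 8.81, 11.1, 11.9 and 9.23 CPM, against 5.19 and 5.73 CPM in N2, with a log2 fold change of 0.88 that was 0.86 in HW3826 and 0.90 in GR1395 (edgeR adjusted p of 0.0889 in the 2-group fit and 0.002 in the strain-mean contrast). gst-4, a glutathione transferase used as a marker of oxidative stress responses, was higher in both strains by unequal amounts, 0.46 in HW3826 and 1.15 in GR1395, and that difference passed (edgeR adjusted p = 0.000489). ugt-53 went the other way, with 1.06 in HW3826 and 0.64 in GR1395 (edgeR adjusted p = 0.0133 for the difference, up to 0.148 without HW3826 replicate 1 or GR1395 replicate 1). Cytosolic heat shock genes had 6 higher and 1 lower of 17 (35.3% and 5.88%), and 4 and 0 with the trend removed. In the strain-mean contrast 5 were called higher, 2 without HW3826 replicate 1 or N2 replicate 1, 1 without HW3826 replicate 2, 3 without GR1395 replicate 1 and 0 without N2 replicate 2. The chaperones hsp-90 and hsp-1 had log2 fold changes of 0.13 and 0.12 and passed neither fit, and hsp-16.2 was well above N2 in the GR1395 libraries, at 31.6 and 18.9 CPM, beside 5.9 and 6.64 CPM in HW3826, against 5.66 and 5.23 CPM in N2. HW3826 minus GR1395 was -1.96 for hsp-16.2 (edgeR adjusted p = 0.00121), and reads may be divided with its near-identical copies.

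Tissue markers were measured in all libraries, as whole larvae would give. Summed levels of the 25 body wall muscle genes were 16243 and 16278 CPM in HW3826 and 16193 and 15903 CPM in GR1395, against 15044 and 14520 CPM in N2. The 21 intestine genes summed to 7473 and 7587 CPM in HW3826 and 6087 and 6251 CPM in GR1395, against 6980 and 6858 CPM in N2, so that the array strains lay on opposite sides of N2. In whole larvae fewer cells of a type and less RNA per cell cannot be told apart. Muscle genes had 8 higher and 2 lower (32% and 8%, beside 14.2% and 10.2% of all genes tested), and 3 and 4 with the length trend removed. Called in the strain-mean contrast were 6 higher and 2 lower, and 0 and 2 with the trend removed. Genes of giant muscle proteins were among the higher ones: ttn-1, the titin of C. elegans, had 329, 346, 355 and 343 CPM, against 284 and 218 CPM in N2, and its log2 fold change of 0.43 was -0.10 with the trend removed. unc-68, the ryanodine receptor, had 0.44 and 0.09, and unc-22, twitchin, had 0.34 and -0.07. All 3 passed the strain-mean contrast, and none did so without N2 replicate 2 or with the trend removed, nor unc-22 without either HW3826 library.

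Among pan-neuronal and synaptic genes 6 of 30 were higher and 0 lower (20% and 0%, beside 14.2% and 10.2% of all genes tested). With the trend removed the counts were 6 and 1. Called in the strain-mean contrast were 4 higher and 0 lower, with 1 higher without N2 replicate 2 and 0 with the trend removed. cla-1, an active zone protein encoded by a long gene, had 140, 153, 153 and 139 CPM, against 110 and 83.3 CPM in N2, and its log2 fold change of 0.57 was 0.15 and short of the threshold with the trend removed (edgeR adjusted p = 0.167 in the strain-mean contrast). The 21 intestine genes were mixed, with 4 higher and 2 lower without overlap (19% and 9.52%) and a median of -0.02. With the trend removed the counts were 2 and 3. The strain-mean contrast called 2 higher and 3 lower, and 2 and 2 with the trend removed. Among the higher ones, elt-2, the GATA factor of the intestine, kept its value with the trend removed. It had 15.3, 15.3, 16.1 and 13.5 CPM, against 10 and 8.96 CPM in N2, a log2 fold change of 0.64 and 0.60 with the trend removed in the strain-mean contrast. It passed there with and without each library and with the trend removed (edgeR adjusted p of 0.0019 and 0.00101), and not in the 2-group fit (0.0889). pgp-1, a P-glycoprotein, had 24.5, 28.1, 21.9 and 17.2 CPM, against 10.9 and 12.3 CPM in N2. The 34 maternal and early embryo genes had 2 higher and 2 lower without overlap (5.88% each). The strain-mean contrast called 1 of them higher and 11 lower, and far fewer lower without N2 replicate 2. Their strain medians were -0.04 in HW3826 and -1.61 in GR1395. They summed to 568 and 513 CPM in HW3826 and 413 and 422 CPM in GR1395, against 489 and 520 CPM in N2.

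Among genes of the surface and the senses, cuticle collagens had 13 higher and 8 lower of 115 (11.3% and 6.96%), chemoreceptors 37 higher and 17 lower of 404 (9.16% and 4.21%), and F-box, MATH and BTB genes 16 higher and 25 lower of 251 (6.37% and 9.96%). These shares were below those of all genes tested, 14.2% and 10.2%, except that the lower share of F-box, MATH and BTB genes was about the same. Hedgehog-related and patched-related genes had 12 higher and 2 lower of 65 (18.5% and 3.08%), and molting and apical matrix genes 7 and 2 of 35 (20% and 5.71%). With the length trend removed these counts were 10 and 9, 39 and 24, 19 and 25, 11 and 5, and 4 and 3. By the strain-mean contrast, 1 cuticle collagen was called higher and 11 lower, 6 chemoreceptors higher and 5 lower, 4 F-box, MATH and BTB genes higher and 14 lower, 7 hedgehog-related and patched-related genes higher and 1 lower, and 3 molting and apical matrix genes higher and 6 lower. The shares over all genes tested were 4.79% higher and 4.42% lower. Without N2 replicate 2 the lower count was 3 for collagens, 5 for F-box, MATH and BTB genes and 2 for molting and apical matrix genes, and the higher count was 0 for hedgehog-related and patched-related genes. dex-1, an apical matrix protein, had 22.1, 20.7, 20.2 and 17.1 CPM, against 11.3 and 12.2 CPM in N2 (log2 fold change 0.75, edgeR adjusted p of 0.0886 in the 2-group fit and 0.000579 in the strain-mean contrast). bath-26, a gene with MATH and BTB domains, had 10.3, 10.6, 10.4 and 11.2 CPM, against 16.2 and 15.7 CPM in N2, with the same log2 fold change of -0.61 in both strains (edgeR adjusted p of 0.0852 in the 2-group fit). Superoxide dismutases and catalases, 8 in all, and the 12 genes encoded in mitochondria had no member without overlap, and the strain-mean contrast called 2 of the dismutases and catalases lower and 1 mitochondrial gene higher.

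**Figure D5:**
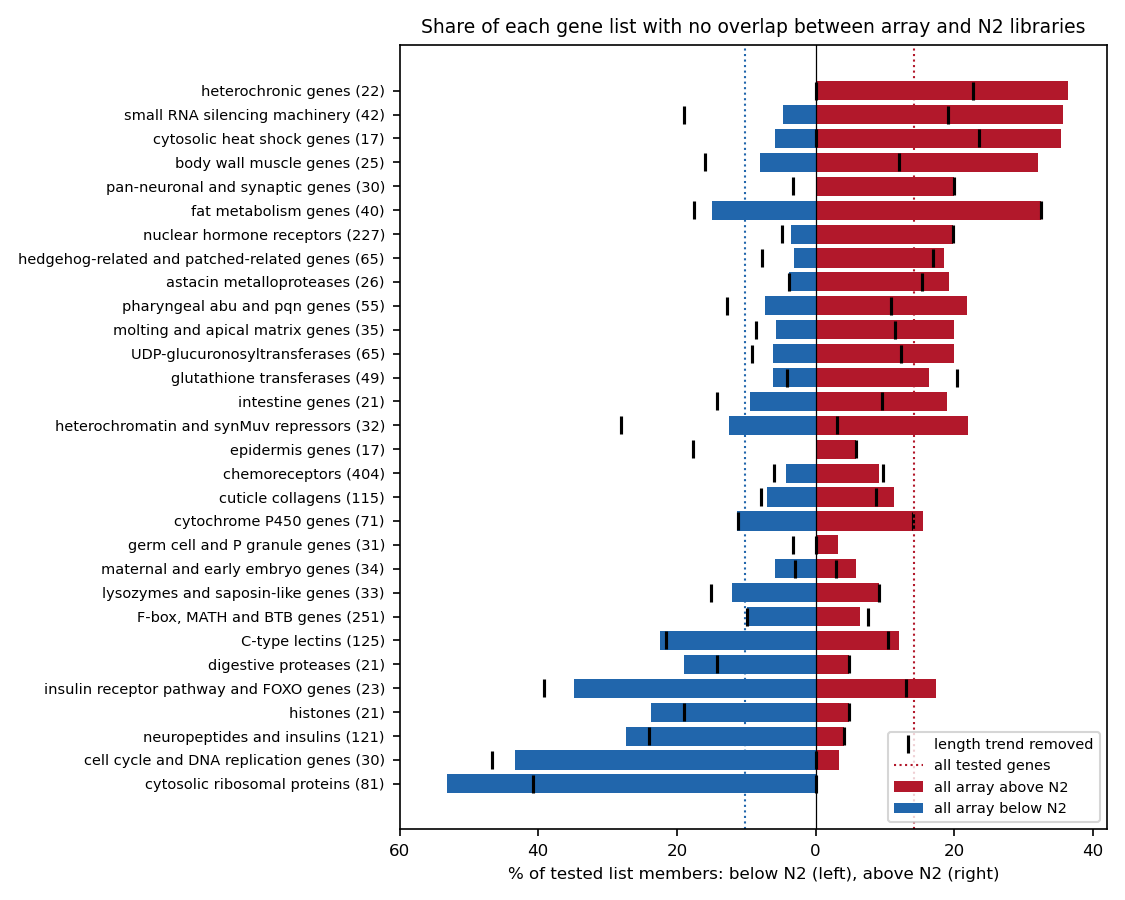
Percent of the tested members of each gene list, for lists with at least 15 tested genes (number in parentheses), that were lower (left) or higher (right) in all 4 array libraries than in both N2 libraries. Dotted lines mark the shares over all tested genes, 10.2% lower and 14.2% higher, and black ticks the list's shares after the length trend was removed, which move the muscle and small RNA lists more than the cell cycle or C-type lectin lists.

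None of the endogenous genes behind the reporters passed in both strains together. Of the 6 genes in the list of array source and myrf genes, 5 were tested and all 5 had overlapping groups. mlt-10 had 12.5 and 12.7 CPM in HW3826 and 6.73 and 10 CPM in GR1395, against 9.37 and 9.37 CPM in N2, with a log2 fold change of 0.14 (edgeR adjusted p = 0.84). ttx-3 had 1.54 to 2 CPM in the array libraries, against 2.04 and 1.96 CPM in N2 (-0.15, edgeR adjusted p = 0.771), and col-19 was at or near 0 counts in every library. myrf-1 had 144 and 164 CPM in HW3826 and 114 and 132 CPM in GR1395, against 131 and 114 CPM in N2, with a log2 fold change of 0.16 (SE 0.15, edgeR adjusted p = 0.68). The values for myrf-2 and for pan-1, whose product binds MYRF proteins, were 0.13 and -0.02 (edgeR adjusted p of 0.639 and 0.95). The SE of these 5 log2 fold changes was 0.10 to 0.26, and their part in the differences above was not tested.

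Among the nuclear chromosomes X had the largest share of higher genes, 17.8% of 2243 tested, with 8.52% lower, and the others had 12.7% to 14.1% higher and 9.54% to 11.5% lower. With the length trend removed X had 13.9% higher and 11.4% lower.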

How the data were processed

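Polyadenylated RNA of whole larvae was sequenced from stranded libraries, per the labels' protocols. Per the submitters' processing notes, HISAT2 (listed as version 1.10.0) and ce11 were used, and which tool counted reads is not given. For 20190 genes the authors deposited raw counts and lengths, and log2 values that equal log2 of the count scaled to the mean library total plus 8, so the log2 table was used only as a check. Ensembl's annotation of WBcel235 (release 115) gave names and positions for 20105 genes.

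Counts were tested with edgeR 4.0.16 in R 4.3.3 (quasi-likelihood, trimmed-mean scaling, default expression filter, robust), with adjusted p-values over all 15024 genes tested and a threshold of 0.05. The 2-group fit set 4 array libraries against 2 N2 libraries, with 4 residual degrees of freedom and a median biological coefficient of variation of 12.9%. The fit with 1 coefficient per strain had 3 degrees of freedom and 8.32%, and gave the strain-mean contrast, the values of each strain against N2, which share the N2 libraries, and HW3826 against GR1395. CPM are counts scaled by the library total. The length trend was removed as a smoothed offset per library. The script was tested on simulated data.

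Named genes were those with an adjusted p under 0.05 in the 2-group fit, no overlap and a mean of at least 2 CPM, ranked by the gap between nearest libraries with 0.5 CPM added, up to 12 in each direction, and the source and myrf genes. Since 7 genes met this, the ranking without the p condition, the list examples and the neighbours were added after the values were seen. The members and the gene lists were chosen with earlier results of these data known. DESeq2 1.42.0, limma-voom (limma 3.58.1), other scalings and filters, a replicate block, removal of the length trend and leaving out each library were tried as alternatives.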

Additional observations from a re-analysis of the deposited data

Results flagged for a closer look

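Both array strains fell below N2 for srw-85, and the test of the difference between them put HW3826 further below by a log2 difference of -0.55 (edgeR adjusted p = 0.0461, lost without HW3826 replicate 1 or GR1395 replicate 1). F18E3.12 differed between the array strains by 1.35, higher in HW3826 (edgeR adjusted p = 0.000692). The same contrast gave 0.37 for myrf-1 (edgeR adjusted p = 0.0253, up to 0.243 without HW3826 replicate 2 or GR1395 replicate 1). For mlt-10 it gave 0.64 (edgeR adjusted p = 0.0214, up to 0.167 without either HW3826 library or GR1395 replicate 1).

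In 6 genes 1 of the 4 array libraries stood far from the other 3, measured as its distance to the nearest of them over the range of all 4, beyond the limit for 4 samples. The ratio was 0.887 for fmo-2, 0.866 for cpg-7, 0.855 for Y40B10B.1 and 0.875 for C18D11.6, all with GR1395 replicate 1 highest. It was 0.832 for egl-17 and 0.923 for C17C3.3, both with GR1395 replicate 1 lowest. Chance flags about 1 in 20 groups at this limit. The number of genes checked is not given, so the count of 6 cannot be weighed against that rate. All 6 belong to the ranking by gap, which was made after the values were seen. The array libraries also come from different strains, whereas the limit treats them as 1 group.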

How the results depend on the processing

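No gene past the threshold of the 2-group fit changed direction under any alternative. Removal of the length trend turned the no-overlap split to 1656 higher and 1893 lower (2137 and 1535 with it) and the strain-mean split to 453 and 752 (719 and 664). It likewise turned the counts of heterochromatin repressors to 1 higher and 9 lower and of muscle genes to 3 and 4, and the log2 fold changes of ttn-1 and unc-22 to -0.10 and -0.07. The 2-group fit called 7 genes, 1 higher and 6 lower. With 1 coefficient per strain and the mean of both strains it called 1383 (719 higher, 664 lower), with DESeq2 401 (272 and 129), without the expression filter 52 (24 and 28), and with library totals as the only scaling 2 (0 and 2). Without 1 library it called 2 to 16 genes, 0 to 6 of them higher and 2 to 10 lower. With the replicate number of the labels as a block it called 2 (0 and 2), and the strain-mean contrast 907 (406 lower). Deviations of same-numbered libraries correlated at 0.00974, -0.184 and 0.0135 between strains. Such correlations over all genes cannot exclude a pairing, and the sample titles give a replicate number only, so whether the numbers pair libraries is not known.

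The no-overlap counts are 25 higher and 17 lower if the nearest libraries must differ 1.5-fold. Without 1 library they are 2409 to 4679 higher and 1809 to 3317 lower, where fewer libraries make non-overlap easier to meet. The strain-mean contrast called 472 to 2287 genes without 1 library, 232 to 1146 higher and 240 to 1141 lower. Leaving out libraries and removing the trend in the strain-mean contrast and in the gene lists were chosen after seeing the data. The cause of these changes was not tested. srw-85 and haf-6 passed in all 16 alternatives. N2 has 2 libraries, and each array 1 strain.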
